A study of Mus musculus with 13 samples.

Results

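The 4 ion transport genes, Atp1b1, Atp1b2, Slc12a2 and Slc12a5, were examined, out of the 37636 genes listed for mouse brain. They were taken by name, and each symbol matched 1 gene. All 4 passed the filter of a mean of at least 1 FPKM (fragments per kilobase of gene length, scaled to the fragments mapped in each library), which left 13905 genes to be tested. All mice were Balb/c males aged 6 to 8 weeks. The Con group (4 libraries) was kept under normal conditions without 6-OHG. The Mod group (5 libraries) spent 24 h at 8000 m without 6-OHG, and the 6-OHG group (4 libraries) had the same exposure with 6-OHG, a compound known here only by this code, with no dose given. The brain region is not named, edema was not measured in these files, and only RNA was read. Whether each replicate is another animal is not stated, so the spread behind each p-value may be technical. In whole tissue, fewer cells of a type and less RNA per cell cannot be told apart.

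The sodium pump is a membrane enzyme that exports sodium and imports potassium at the cost of ATP. It joins a catalytic alpha subunit to a beta subunit, which carries the complex to the membrane and tunes its affinity for potassium. Atp1b1 encodes the beta subunit found widely in neurons and epithelia, and Atp1b2 the beta subunit that is abundant in astrocytes and was first described as an adhesion molecule on glia. Slc12a2 encodes NKCC1, which carries sodium, potassium and chloride into cells. Slc12a5 encodes KCC2, the neuronal cotransporter that carries potassium and chloride out, and the balance of both sets how GABA acts on a neuron. When pumps slow, sodium and chloride enter cells and water follows, which is why these genes are studied in cell swelling.

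Slc12a5 has 2 annotated starts that are 7142 bases apart, which give KCC2 isoforms with different first exons, and the deposited table has 1 row for the gene. The stretches just before these starts are shown because no value can be assigned to either, with that of Atp1b1 beside them. The sequences are from RefSeq on GRCm38.p6, read from windows of 250 bases before each start without annotated exon bases. Windows are shown for 2 of the 4 genes, and whether Atp1b2 and Slc12a2 have one is not reported here. Capitals mark the core of the hypoxia response element, ACGTG or GCGTG on either strand.
Slc12a5, upstream start, chr2:164960596-164960801, plus strand: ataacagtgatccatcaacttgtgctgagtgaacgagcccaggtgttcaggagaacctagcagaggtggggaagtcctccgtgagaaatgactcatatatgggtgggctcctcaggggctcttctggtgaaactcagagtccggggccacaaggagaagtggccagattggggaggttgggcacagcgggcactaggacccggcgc
Slc12a5, downstream start, chr2:164967738-164967982, plus strand: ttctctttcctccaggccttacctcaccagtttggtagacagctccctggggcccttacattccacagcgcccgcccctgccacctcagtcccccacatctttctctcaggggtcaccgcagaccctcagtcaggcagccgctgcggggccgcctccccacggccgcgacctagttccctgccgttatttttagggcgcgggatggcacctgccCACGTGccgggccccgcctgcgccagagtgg
Atp1b1, chr1:164458356-164458605, minus strand: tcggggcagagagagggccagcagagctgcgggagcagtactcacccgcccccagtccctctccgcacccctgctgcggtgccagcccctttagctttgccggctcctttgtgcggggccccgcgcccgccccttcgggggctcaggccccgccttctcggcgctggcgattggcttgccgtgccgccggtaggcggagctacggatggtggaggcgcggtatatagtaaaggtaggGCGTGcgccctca
The window before the downstream Slc12a5 start held 2 such cores that overlap in the E-box CACGTG, the first at 36 bases before the start. The window of Atp1b1 held 1 core at 13 bases before the start, and that of the upstream Slc12a5 start held 0. A core was present in 38.6% of the 32851 promoter windows of the same length and an E-box CACGTG in 6.02%, so these matches are a description of the letters.

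On GRCm38, Atp1b1 (ENSMUSG00000026576) lies on chromosome 1 from 164437109 to 164458355 and Atp1b2 (ENSMUSG00000041329) on chromosome 11 from 69599736 to 69605942, both on the minus strand. Slc12a2 (ENSMUSG00000024597) lies on chromosome 18 from 57878678 to 57946821 and Slc12a5 (ENSMUSG00000017740) on chromosome 2 from 164960802 to 164999731, both on the plus strand. All are annotated as protein-coding. Their summed exon lengths were 3081, 4085, 10920 and 7447 bases. Nme7, on the opposite strand, shares 575 exonic bases with Atp1b1. The strand setting of the counting is not stated, and Nme7 reached at most 2.66 FPKM.

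Across the series the columns summed to 268208 to 312908 FPKM, and mitochondrially encoded genes took 20.6% to 28.7% of the sum. All 14 neuron markers and all 12 astrocyte markers examined were above 0 in every library. The libraries with the lowest mean correlation with their own group were 6-OHG replicate 2 (r = 0.963, across genes) and Con replicate 4 (0.969). Con replicate 4, Mod replicate 5 and 6-OHG replicate 2 also had the lowest mean of 8 striatum markers in their groups, at 4.55, 3.26 and 2.64 on the log2 scale. The results below are given without these 3 libraries where that changes a call.

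Mod was first set against Con, for the effect of 24 h at altitude. Differences are of mean log2(FPKM + 1), and a gene is said to rise or fall at an adjusted p under 0.05 in limma, with Benjamini-Hochberg adjustment over the 13905 genes. By limma 0 of the 4 genes passed, where 23.8% of all genes tested did (14% higher and 9.81% lower). Of the 4, 1 (Slc12a5) had an unadjusted p under 0.05, at rank 3399 by p among the 13905 genes. The share of all genes at that unadjusted threshold is not given here. Slc12a5 came closest, at 0.88 times its Con mean.

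Slc12a5 was at 69.9, 69.2, 71.2 and 67.8 FPKM in Con replicates 1 to 4. In Mod replicates 1 to 5 it was at 67.3, 61.6, 59.2, 60.3 and 57.2 FPKM. Every Mod library lay below every Con library, although Mod replicate 1 came within 1 FPKM of the lowest Con library, and such separation was seen for 22.4% of all genes tested. The means were 69.5 ± 1.44 (SD, n = 4) and 61.1 ± 3.81 FPKM (n = 5), a log2 difference of -0.18 (SE 0.06, 95% interval -0.32 to -0.05) with an adjusted p of 0.0532 in limma. The difference was negative in all 29 other settings tried and passed the threshold in 9 of them, as the plot of Slc12a5 across settings shows. Without the 3 libraries named above it was -0.17 (adjusted p = 0.0785). Over the same groups the 14 neuron markers summed to 1440 to 1520 FPKM in Con and 1320 to 1400 in Mod. Of the 14, 2 (Tubb3 and Nefm) were lower, 0 were higher and 12 did not pass. Tubb3 had means of 138 FPKM in Con and 87.5 in Mod, and Snap25, the most abundant, 259 and 265. The part of these markers in the Slc12a5 values was not tested.

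**Figure D1:**
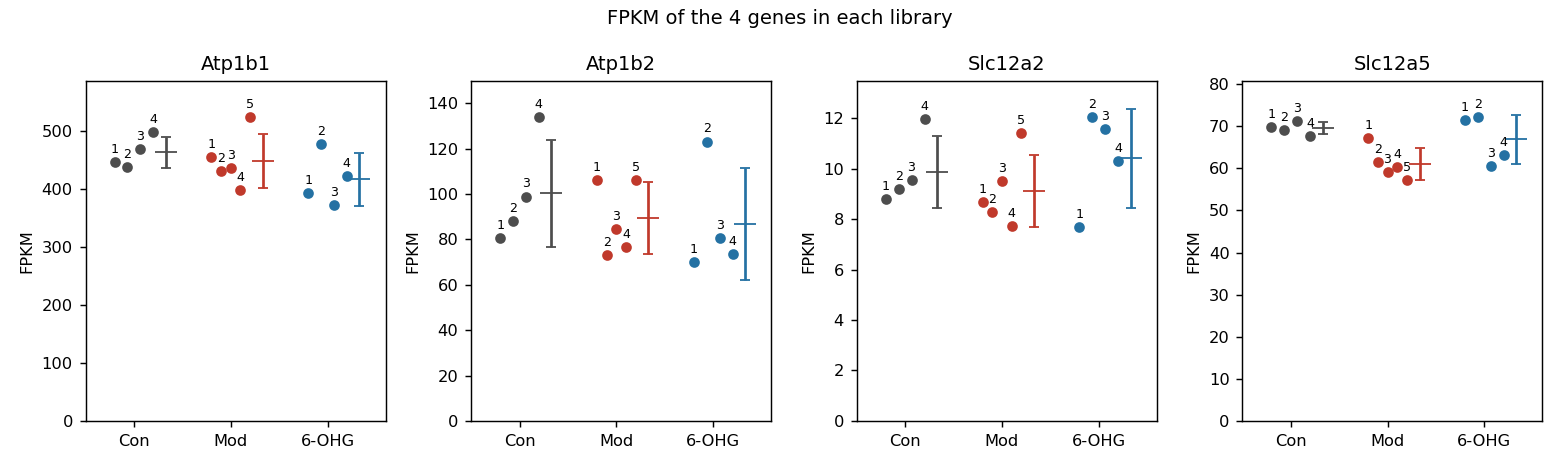
FPKM of Atp1b1, Atp1b2, Slc12a2 and Slc12a5 in each library (dots, with replicate numbers) by group, with the mean and SD beside them and the vertical axis from 0. The Mod libraries of Slc12a5 sit at 57.2 to 67.3 FPKM, below the 67.8 to 71.2 FPKM of Con, while the groups overlap for the other genes.

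Slc12a2, the inward cotransporter, was at 8.81, 9.20, 9.55 and 12.0 FPKM in the Con libraries. In the Mod libraries it was at 8.67, 8.28, 9.50, 7.71 and 11.4 FPKM. The groups overlapped, with the highest value in each coming from Con replicate 4 and Mod replicate 5. The log2 difference was -0.11 (95% interval -0.39 to 0.18, adjusted p = 0.600 in limma), so that a change of more than 0.39 down or 0.18 up lies outside the interval.

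Atp1b1 was the most abundant of the 4, ranking at 35 among the 13905 genes tested. It stood at 447, 437, 470 and 499 FPKM in Con and at 455, 431, 436, 399 and 523 FPKM in Mod. The groups overlapped almost fully (log2 difference -0.05, 95% interval -0.24 to 0.14, adjusted p = 0.735 in limma). Atp1b2, the glial beta subunit, was at 80.7, 87.9, 98.9 and 134 FPKM in Con. It was at 106, 72.9, 84.7, 76.7 and 106 FPKM in Mod. Its values spread widely within groups and overlapped between them (log2 difference -0.16, 95% interval -0.56 to 0.25, adjusted p = 0.592 in limma). The spread within groups of Atp1b2, an SD of 0.31 on the log2 scale, was above that of 89.8% of the genes tested, so that only larger differences could pass. For Slc12a5 the same SD was 0.09, at the 18.1 percentile, against a median of 0.14 (Atp1b1 0.13, Slc12a2 0.21).

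Next, 6-OHG was set against Mod, for the effect of the compound in exposed mice. By limma 0 of the 4 genes passed, where 15.3% of all genes tested did (6.98% higher and 8.35% lower). Of the 4, 0 had an unadjusted p under 0.05. The groups overlapped for all 4 genes, while 15.9% of all genes tested showed no overlap. Slc12a5 was at 71.5, 72.1, 60.7 and 63.2 FPKM with 6-OHG. Replicates 1 and 2 of 6-OHG lay above every Con library, while replicates 3 and 4 lay within the Mod range. The mean was 66.9 ± 5.81 FPKM (n = 4), a log2 difference from Mod of 0.13 (SE 0.06, 95% interval -0.01 to 0.26, adjusted p = 0.205 in limma). It passed in 2 of 29 other settings and was 0.07 without the 3 libraries named above (adjusted p = 0.525). The neuron markers summed to 1310 to 1480 FPKM with 6-OHG, with 1 of 14 (Map2) higher than in Mod and 0 lower.

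Slc12a2 was at 7.69, 12.0, 11.6 and 10.3 FPKM with 6-OHG. These span the whole Mod range (log2 difference 0.17, 95% interval -0.12 to 0.45, adjusted p = 0.432 in limma). Atp1b1 was at 394, 478, 373 and 422 FPKM (log2 difference -0.11, 95% interval -0.30 to 0.09, adjusted p = 0.457). Atp1b2 was at 69.9, 123, 80.7 and 73.4 FPKM (-0.06, 95% interval -0.46 to 0.34, adjusted p = 0.862), and the sign of that difference changed in 9 of 29 other settings. For Atp1b1, Atp1b2 and Slc12a2 the 6-OHG and Mod libraries overlapped.

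Last, 6-OHG was set against Con, a comparison that shares all its libraries with the others. By limma 0 of the 4 genes passed, where 30.7% of all genes tested did (16.3% higher and 14.4% lower). Of the 4, 0 had an unadjusted p under 0.05. The log2 differences were -0.06 for Slc12a5 (95% interval -0.20 to 0.09), 0.06 for Slc12a2 (-0.24 to 0.36), -0.16 for Atp1b1 (-0.36 to 0.05) and -0.22 for Atp1b2 (-0.64 to 0.21). Their adjusted p-values in limma were 0.541, 0.783, 0.227 and 0.427. The groups overlapped for all 4 genes, while 28.1% of all genes tested showed no overlap.

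**Figure D2:**
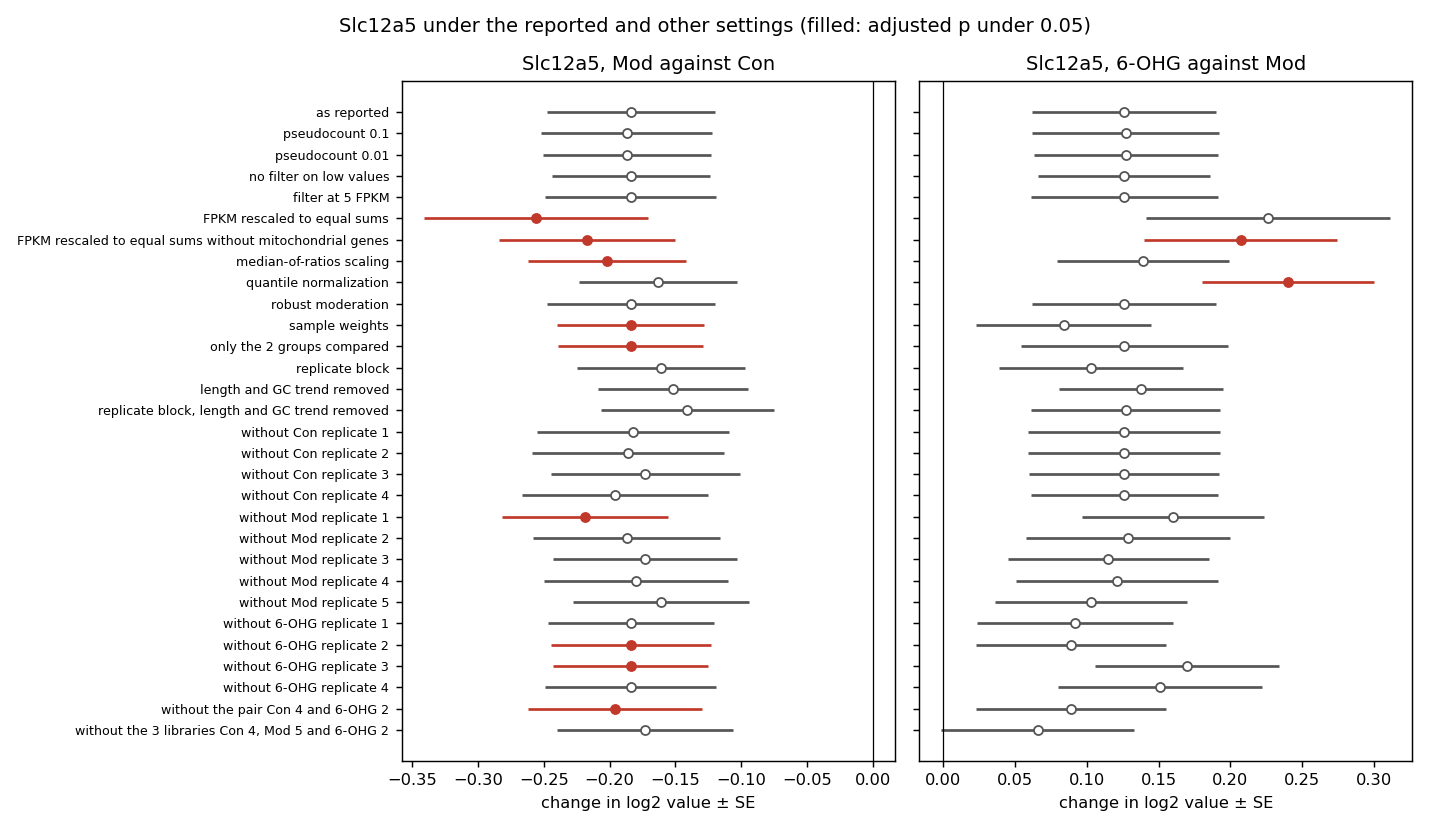
Change of Slc12a5 (horizontal axis, log2 scale, with its SE), Mod against Con on the left and 6-OHG against Mod on the right, as reported and under 29 other settings, filled where the adjusted p was under 0.05. The Mod against Con values run from -0.26 to -0.14 and 9 of them are filled.

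By level, which FPKM gives per length, Atp1b1 stood above the other 3 genes in 13 of 13 libraries and Slc12a2 below them in all 13. Atp1b2 (mean over all libraries 91.9 ± 20.2 FPKM, SD, n = 13) and Slc12a5 (65.5 ± 5.26) were neighbours whose ranges met, with Atp1b2 higher in 12 of 13 libraries and Slc12a5 higher in 6-OHG replicate 1. The ratio of Slc12a5 to Slc12a2, outward to inward cotransporter, was 5.66 to 7.93 in Con, 5.01 to 7.83 in Mod and 5.24 to 9.30 with 6-OHG. The ratio of Atp1b1 to Atp1b2 was 3.73 to 5.54 in Con, 4.29 to 5.91 in Mod and 3.89 to 5.75 with 6-OHG. Both ratios overlapped across all groups, and as scores over chosen genes they were given no test.

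Within groups, 3 of the genes were high in the same libraries. Atp1b1, Atp1b2 and Slc12a2 each had their highest value of the group in Con replicate 4, Mod replicate 5 and 6-OHG replicate 2. Atp1b2 lay above its group mean there by 0.44, 0.27 and 0.54 on the log2 scale, and by 0.27 in Mod replicate 1. Slc12a2 lay above by 0.29, 0.34 and 0.23 and Atp1b1 by 0.11, 0.23 and 0.21. Slc12a5 deviated by -0.04, -0.09 and 0.11 and showed no such pattern. The striatum markers lay below their group means by 0.49, 1.39 and 1.68 in these libraries and by 0.87 in Mod replicate 1. Their part in these values was not tested. The 12 astrocyte markers summed to 494 to 578 FPKM in Con, 509 to 610 in Mod and 474 to 605 with 6-OHG. The 12 choroid plexus markers, of a tissue that holds both NKCC1 and sodium pumps, summed to 338 to 766, 70.2 to 285 and 27.6 to 405 FPKM. Ttr, the most abundant, made up 6.0% of that sum in 6-OHG replicate 2 and 50.2% to 89.5% in the other libraries, with 8 of the 12 under a mean of 1 FPKM and Folr1 listed at 0 in at least 1 library.

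**Figure D3:**
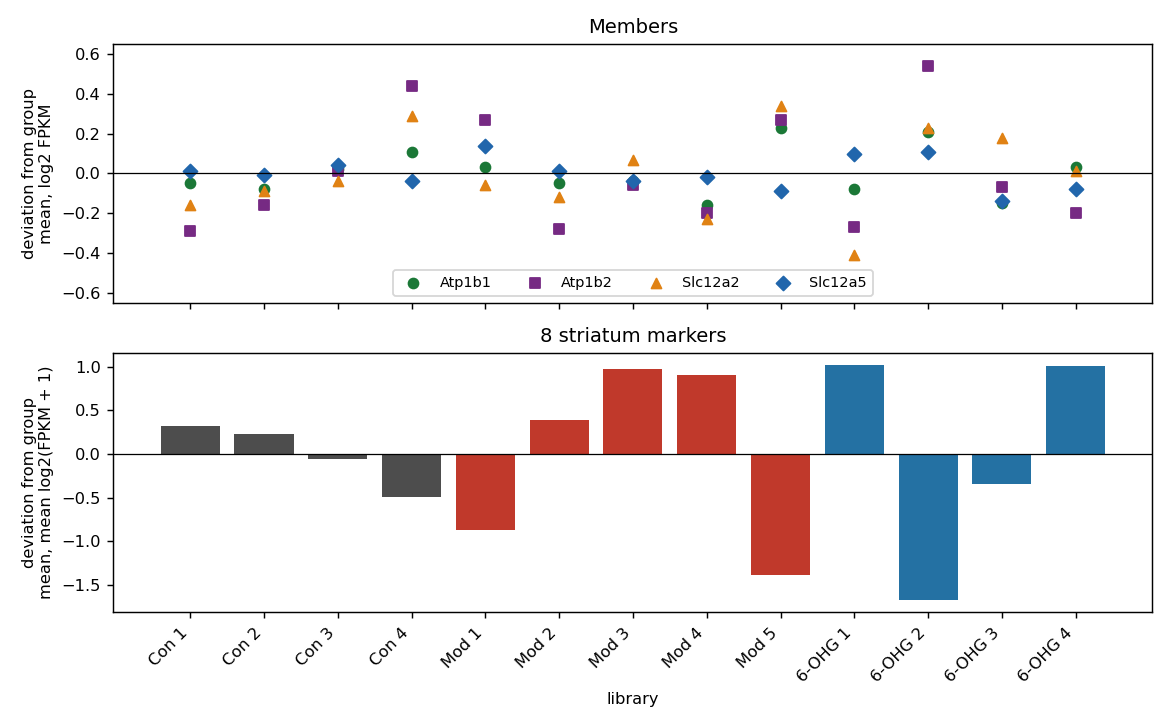
Deviation of each library from its group mean, on the log2 scale, for the 4 genes (top, points) and for the mean of 8 striatum markers (bottom, bars). Atp1b2 is highest and the striatum markers are lowest in Con replicate 4, Mod replicate 5 and 6-OHG replicate 2 within their groups.

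Genes with the most similar pattern over the 13 libraries were ranked by Pearson correlation of log2 values, as a description of libraries that share groups and tissue. For Atp1b2 they were Irx2 (r = 0.98), Arl4c (0.97) and Lrrc75b (0.97), and Irx2, a homeobox transcription factor, ranged from 0.0758 to 4.39 FPKM. For Atp1b1 they were Tmem163 (0.95), Trmt2b (0.94) and Sms (0.94). For Slc12a2 they were Myo6 (0.91), Kif5b (0.90) and Efcab14 (0.90), and for Slc12a5 Cnnm2 (0.91), Hgs (0.89) and Usp15 (0.89).

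Of the 3 beta subunits tested (Atp1b1, Atp1b2 and Atp1b3) 0 passed by limma in any comparison, and 1 had an unadjusted p under 0.05, Atp1b3 in 6-OHG against Mod. Without the 3 libraries named above 1 of the 3, Atp1b3, fell with 6-OHG against Mod, where 1351 of all 13905 genes tested fell. Atp1b1 made up 73.0% to 79.6% of the summed beta subunit FPKM, Atp1b2 13.4% to 19.6% and Atp1b3 6.21% to 7.58%. Atp1b4, at a mean of 0.00132 FPKM, was not tested.

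FXYD proteins are small membrane proteins that modulate the pump. Of 7 listed 4 were tested. Fxyd5, also known as dysadherin, was at 3.02 ± 0.387 FPKM in Con and rose to 5.28 ± 0.294 in Mod (0.65 on the log2 scale, SE 0.08, adjusted p = 0.00017 in limma), with no overlap. With 6-OHG it was at 4.00 ± 0.494 FPKM, below every Mod library (log2 change -0.33, adjusted p = 0.0166) and higher than in Con by 0.31 (adjusted p = 0.0151). The call against Mod ended without 6-OHG replicate 4 (adjusted p = 0.0518 in limma) and with FPKM rescaled to equal sums (0.0940). It also ended with the replicate block and the length and GC trend removed (0.0879). The call against Con ended in 3 of 28 other settings. It was lost with only the 2 groups compared (0.0518) and without Con replicate 4 and 6-OHG replicate 2 (0.0801). The same call ended without the 3 libraries named above (log2 change 0.20, 0.0877). Fxyd1, a regulator abundant in glia and choroid plexus, was at 6.25 ± 0.492 FPKM in Con and 4.23 ± 0.865 with 6-OHG (log2 change -0.49, adjusted p = 0.0324), a call that ended in 10 of 29 other settings. Fxyd6 and Fxyd7 did not pass in any comparison.

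Markers of some other tissue and cell types also changed between these groups. Of 11 endothelium markers 7 rose and 3 fell in Mod against Con, where 23.8% of all genes tested passed. In 6-OHG against Mod 1 rose (Slco1a4) and 1 fell (Cldn5, which had risen in Mod), where 15.3% passed. The 8 hypothalamus markers summed to 4.61 to 75.3 FPKM in Con, 67.4 to 125 in Mod and 2.52 to 40.2 with 6-OHG, and of the 5 tested 3 rose in Mod against Con and 3 fell in 6-OHG against Mod, Hcrt (orexin) among both. The 10 liver markers had a mean log2 value of 3.15 to 3.38 in Con and 2.92 in Mod replicate 3. The other Mod libraries were at 1.06 to 1.44 and the 6-OHG libraries at 0.75 to 1.45. Of the 6 tested 5 fell in Mod against Con, and 0 passed in 6-OHG against Mod. Of the 10 liver markers 7, Alb included, were listed at 0 in at least 1 library. The 6 tested include Ttr, also counted among the choroid plexus markers above, and Trf, at 22.3 to 119 FPKM across the libraries. Ttr and Trf are therefore not specific to liver. The part of these endothelium, hypothalamus and liver markers in the values of Fxyd5, and of Slc12a4 and Slc12a9 below, was not tested. The calls of Fxyd5 and Slc12a4 for Mod against Con and for 6-OHG against Mod held without Mod replicate 3. That fit does not test the part of these markers, since the Mod libraries it keeps are all low in the liver markers.

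**Figure D4:**
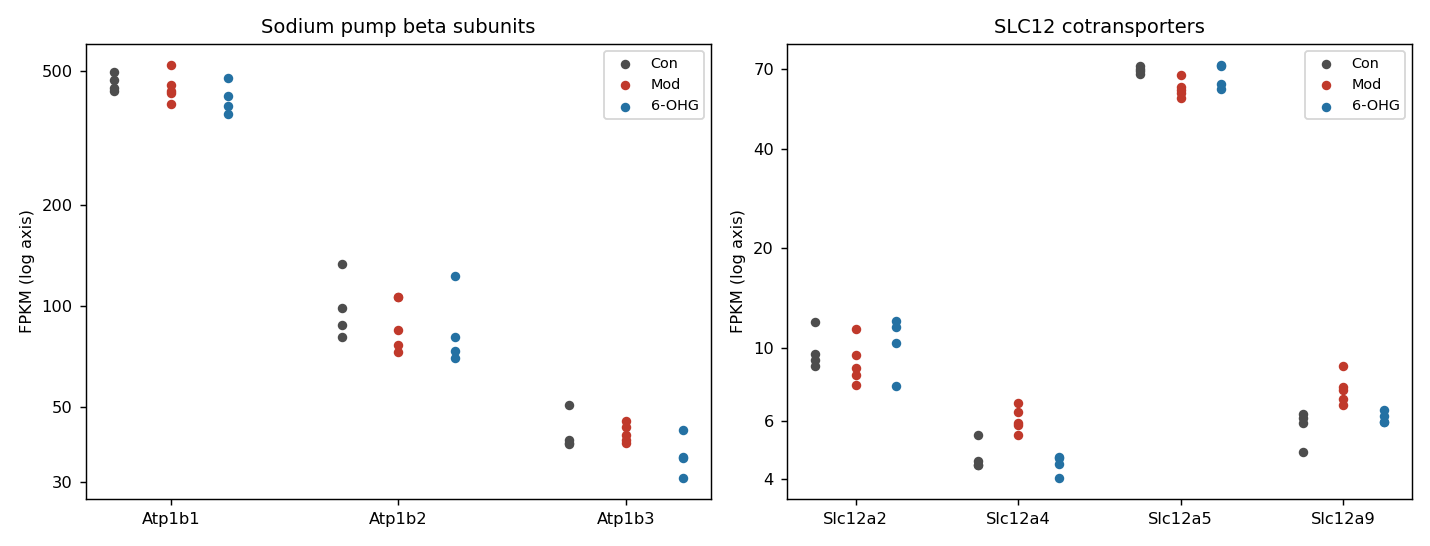
FPKM in each library (dots, log axis) for the tested sodium pump beta subunits (left) and 4 SLC12 cotransporters (right), coloured by group. Atp1b1 and Slc12a5 are the most abundant of those shown, and Slc12a4 and Slc12a9 are higher in Mod than in Con.

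Other cotransporters of the SLC12 family passed the threshold. Of the 4 reported here (Slc12a2, Slc12a4, Slc12a5 and Slc12a9) 2 rose and 0 fell in Mod against Con. Over all genes tested 14% rose and 9.81% fell. Slc12a4 encodes KCC1, a widespread cotransporter active in cell volume control. Its mean was 4.71 ± 0.499 FPKM in Con and rose to 6.07 ± 0.526 in Mod (0.31 on the log2 scale, SE 0.07, adjusted p = 0.00890 in limma), and 1 Mod library, at 5.43 FPKM, lay just under the highest Con library at 5.46. Slc12a9, a relative whose transport is less well defined, rose from 5.79 ± 0.659 to 7.52 ± 0.796 FPKM (0.33, adjusted p = 0.0104), with no overlap. The Slc12a4 call was lost with FPKM rescaled to equal sums (0.0517).

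With 6-OHG the levels of Slc12a4 were 4.68, 4.03, 4.45 and 4.63 FPKM, all below the Mod libraries and within or under the range of the Con libraries. It fell by 0.38 on the log2 scale against Mod (SE 0.07, adjusted p = 0.00544 in limma), a call that ended with the replicate block and the length and GC trend removed together (-0.29, 0.136). Slc12a9 was at 6.16 ± 0.260 FPKM, also below every Mod library, and missed the threshold (log2 difference -0.25, adjusted p = 0.0532 in limma). It passed in 5 of 29 other settings, among them those without the 3 libraries named above (-0.30, adjusted p = 0.0410), with sample weights (0.0281), without Mod replicate 5 (0.0437) and without Con replicate 3 (0.0310). Of these 4 genes 0 rose and 1 fell in 6-OHG against Mod, where 6.98% of all genes tested rose and 8.35% fell. By limma 0 of them passed in 6-OHG against Con, where 30.7% of all genes did, and 0 had an unadjusted p under 0.05. Mod against Con and 6-OHG against Mod share the Mod libraries. Of the summed FPKM of the 9 SLC12 genes listed, Slc12a5 made up 64.4% to 68.0% in Con, 61.0% to 63.9% in Mod and 61.4% to 67.9% with 6-OHG. Slc12a1, Slc12a3, Slc12a7 and Slc12a8 had means of 0.0665 to 0.346 FPKM and were not tested.

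WNK kinases sense chloride and, through SPAK (Stk39) and OSR1 (Oxsr1), switch NKCC1 on and KCC2 off. Of 11 genes of this pathway 1 rose and 1 fell in Mod against Con, where 23.8% of all genes tested passed. By limma 0 passed in 6-OHG against Mod and in 6-OHG against Con, where 15.3% and 30.7% of all genes did. At an unadjusted p under 0.05, for which the share of all genes is not given, there were 6 and 4. These counts depended on the scaling, as did those of all genes. With equal sums without mitochondrial genes 4 rose in 6-OHG against Mod, where 1792 of all 13909 genes tested rose. In 6-OHG against Con 3 rose under that scaling, where 2824 of all genes did. After quantile normalization 3 rose in each, where 1307 and 2352 of 13905 genes rose. With equal sums 2 rose in 6-OHG against Mod, where 1385 of 13914 genes rose. In 6-OHG against Mod 2 also rose without 6-OHG replicate 3, where 747 of 13905 genes rose. Wnk1 fell from 10.5 ± 0.848 FPKM in Con to 8.25 ± 0.519 in Mod (-0.31 on the log2 scale, SE 0.07, adjusted p = 0.00667 in limma), with no overlap. Wnk4, at a low level, rose from 1.20 ± 0.162 to 1.74 ± 0.190 FPKM (0.32, adjusted p = 0.0319), and that call ended in 11 of 28 other settings, 6 of them fits without 1 library. Stk39 and Oxsr1 did not pass (log2 differences -0.12 and 0.10). Without the 3 libraries named above 1 gene of this pathway rose and 3 fell in Mod against Con. Of all 13905 genes tested 2089 rose and 1664 fell in that fit.

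**Figure D5:**
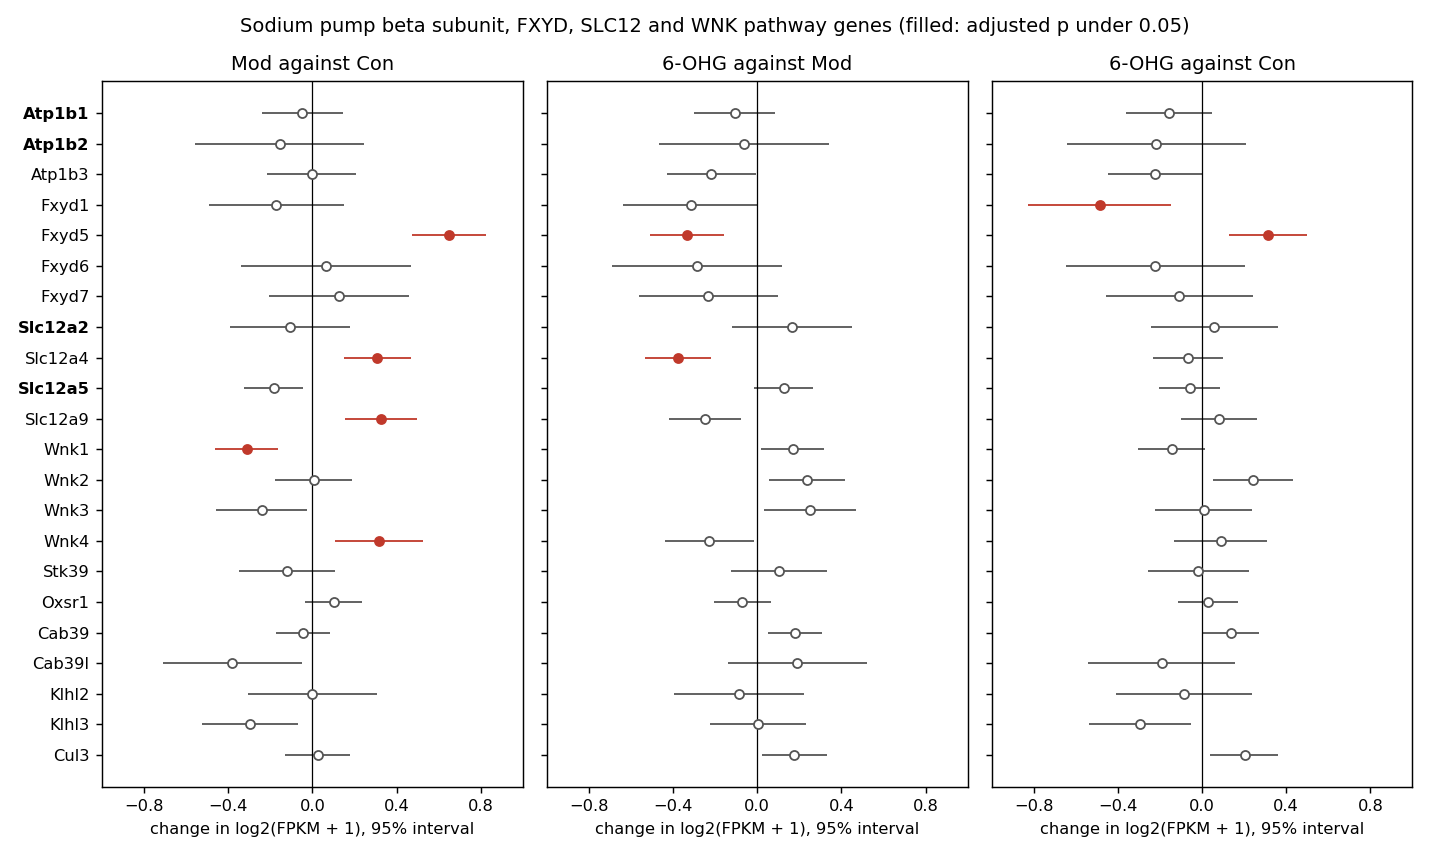
Change in log2(FPKM + 1) with its 95% interval in the 3 comparisons, filled where the adjusted p was under 0.05. Shown are the tested genes of the beta subunit, FXYD and WNK lists, with only Slc12a2, Slc12a4, Slc12a5 and Slc12a9 of the SLC12 list. The 4 genes of this report are in bold. None of the 4 is filled, while Fxyd5, Slc12a4, Slc12a9, Wnk1 and Wnk4 are filled in Mod against Con.

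Among 17 tested genes of other ion and water transport studied in brain edema, 1 rose and 3 fell in Mod against Con, a share of the list close to the 23.8% of all genes tested that passed. In 6-OHG against Mod 1 rose and 0 fell (15.3% of all genes passed), and in 6-OHG against Con 0 rose and 1 fell (30.7%). Aqp4, the water channel of astrocyte endfeet, fell from 16.7 ± 3.16 FPKM in Con to 8.33 ± 1.37 in Mod (-0.92 on the log2 scale, adjusted p = 0.00194 in limma) and was at 9.33 ± 2.69 with 6-OHG. Kcnj10, the potassium channel Kir4.1 of astrocytes, fell from 56.1 ± 10.5 to 35.3 ± 6.90 FPKM (-0.66, adjusted p = 0.0178). Slc8a1, a sodium-calcium exchanger, fell from 11.8 ± 1.39 to 8.27 ± 0.396 FPKM (-0.46, adjusted p = 0.00228) and was at 12.1 ± 1.42 with 6-OHG (0.50 against Mod, adjusted p = 0.00304, which was 0.120 with the replicate block and the length and GC trend removed). The chloride channel gene Clcn2 rose from 9.40 ± 1.01 to 12.0 ± 0.748 FPKM (0.32, adjusted p = 0.0112). For these 4 genes the Mod and Con libraries did not overlap. They were named because they were called in that comparison, so the lack of overlap adds no support. The 22.4% of all genes tested without overlap is no background for genes so chosen. Of the 12 astrocyte markers, Aqp4 among them, 2 were higher and 3 lower in Mod than in Con, and their part in these values was not tested. Without the 3 libraries named above 2 genes of this list rose and 3 fell in Mod against Con. Of all 13905 genes tested 2089 rose and 1664 fell in that fit. Without Con replicate 4 and 6-OHG replicate 2 alone 2 of the list rose and 6 fell, where 2298 of all genes rose and 1804 fell.

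Beside the median of all genes tested (0.01 in Mod against Con, -0.02 in 6-OHG against Mod and 0 in 6-OHG against Con, on the log2 scale), the medians of these lists lay between -0.30 and 0.17. For the 3 beta subunits they were -0.05, -0.11 and -0.22 in that order. The 4 FXYD genes had medians of 0.09, -0.30 and -0.16. The 11 genes of the WNK pathway had medians of -0.04, 0.17 and 0.01, and the 17 other transport genes of -0.11, 0.13 and 0.04.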

How the data were processed

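The deposited values are FPKM, 1 column for each of 13 libraries, computed by the authors. Reads were handled with HISAT2 2.2.1, featureCounts 1.5.0-p3, StringTie 2.1.6, edgeR, DESeq2, FastQC and cutadapt 1.9, on GRCm38 or mm10, per the submitters' processing notes, which name no role for any of them. The tool behind the FPKM, the annotation, the strand setting and any filter are not given in the sources used here. Of the low values of genes with 1 transcript, 4.66% to 7.87% lay within 0.01 of a whole multiple of the most frequent one, so counts were not recovered, the depth is unknown and no counting error is given.

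IDs were matched to symbols (37499 of 37636) and to GENCODE M21 on GRCm38. Values were taken as log2(FPKM + 1), a scale that understates the change of low genes. Linear models with 1 mean per group over all 13 libraries, moderated with a trend on the mean, were fitted in limma 3.58.1 (R 4.3.3) to the 13905 genes whose mean reached 1 FPKM, and checked on simulated data. Figures used matplotlib 3.10.9.

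The genes, lists and tests were chosen with earlier results of these data known. Genes named are the 4 genes, members of the pathway lists, cell type markers that changed or are the most abundant of their list, the 3 genes most similar in pattern to each of the 4, and genes that overlap them. Other settings were smaller pseudocounts, other filters, 4 scalings, robust moderation, sample weights, a block for the replicate number, only the groups compared, values freed of their dependence on exon length and GC, and each library, or Con replicate 4 with 6-OHG replicate 2, left out. Leaving out 3 libraries together was added after the data were seen. No whole lists were tested. Some genes of the lists are not reported here.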

Additional observations from a re-analysis of the deposited data

How the results depend on the processing

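Of 348 values of the 4 genes under other settings (12 results in 29 settings each), 324 kept their direction and their side of the threshold. For Slc12a5 in Mod against Con the change passed with FPKM rescaled to equal sums (-0.256), the same without mitochondrial genes (-0.217), median-of-ratios scaling (-0.202), sample weights (-0.184), only the 2 groups compared (-0.184) and without Con replicate 4 and 6-OHG replicate 2 together (-0.196). It also passed in 3 of 13 fits without 1 library, which ranged from -0.219 to -0.161. For Slc12a5 in 6-OHG against Mod it passed without mitochondrial genes in the scaling (0.207) and after quantile normalization (0.240). Signs changed, with no call on either side, for Atp1b2 in 6-OHG against Mod with equal sums (0.040), equal sums without mitochondrial genes (0.020), quantile normalization (0.080), the replicate block (0.005) and the block with the length and GC trend removed (0.048). Without 1 library that value ranged from -0.241 to 0.029. In 6-OHG against Con the sign changed for Slc12a2 with the length and GC trend removed (-0.046, and -0.046 with the replicate block as well), over a range of -0.011 to 0.183 without 1 library, and for Slc12a5 after quantile normalization (0.077). The causes were not tested.

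The counts of all genes called were 3304 in Mod against Con, 2131 in 6-OHG against Mod and 4268 in 6-OHG against Con. The filter at 5 FPKM tested fewer genes and gave 2061 and 2663 in Mod against Con and 6-OHG against Con. The replicate block gave 2039 for Mod against Con and 846 for 6-OHG against Mod, and with the length and GC trend removed 2133 and 64. Removal of that trend alone gave 976 in 6-OHG against Mod, and leaving out 1 library gave 1357 to 2345 there, the lowest without 6-OHG replicate 4. The share of higher genes among those called moved with equal sums from 58.7% to 40.5% for Mod against Con, and for 6-OHG against Mod from 45.5% to 77.7%, or to 73.1% without mitochondrial genes. Replicate numbers are not stated to pair the samples: same-numbered libraries deviated together (r over 0.1) in 3 of 12 pairs, from -0.483 to 0.346. The highest r between libraries of different groups was 0.651, for Con replicate 4 and 6-OHG replicate 2. Mod replicate 5 was at 0.367 and 0.418 with these. Under the replicate block Wnk4 (adjusted p = 0.0804) lost its call in Mod against Con and Fxyd1 (0.0691) in 6-OHG against Con. Read totals are unknown, so the limit that depth sets at low FPKM, as for Wnk4, has no number here.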
